A study of Mus musculus with 20 samples.

Results

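The 10 genes described here belong to the ATF4 arm of the integrated stress response and were examined in BV-2 microglia. They were taken from the count table by identifier, as the rows whose Ensembl mouse identifier carries the symbols *Atf4*, *Ddit3*, *Trib3*, *Chac1*, *Sesn2*, *Asns*, *Psat1*, *Phgdh*, *Mthfd2* and *Slc7a5*, which is 10 of 55487 identifiers. All 10 were among the 12799 genes that passed the filter on low counts. *Chac1* passed it only through the LPS-treated groups, since 1 of 5 untreated libraries of each age lay above the filter and 5 of 5 LPS-treated libraries did.

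RNA was sequenced from 20 cultures of BV-2, a wild-type immortalised microglial cell line started from brain cultures of C57BL/6 mice. The cultures formed 4 groups of 5, which were young untreated, aged untreated, young LPS-treated and aged LPS-treated. A culture number below is the replicate number of the labels, shared by an untreated and an LPS-treated library of each age. Whether such a pair came from a split culture is not given in the sources used here. Aged BV-2 microglia had been propagated in long-term culture and frozen as aliquots, young (control) BV-2 microglia came from a low passage, and both were thawed at the same time for the experiment. The treated groups received bacterial lipopolysaccharide (LPS), a Toll-like receptor 4 ligand, at 100 ng/ml for 6 hours. The model is a proliferating cell line aged in a dish, and whether the 5 aged cultures come from a single long-term culture is not given in the sources used here, so all p-values measure the spread between these cultures.

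Under amino acid shortage, endoplasmic reticulum stress, viral RNA or haem shortage, a set of kinases phosphorylates the translation factor eIF2. General translation then falls while the *Atf4* mRNA is translated more, and the ATF4 protein, a bZIP transcription factor, binds composite C/EBP-ATF elements together with partners such as CHOP (*Ddit3*) and C/EBP proteins. Its classical targets bring in and make amino acids, charge tRNAs, and include feedback and cell death regulators such as TRIB3 and CHAC1. The RNA level of these targets is widely used as a readout of the pathway, although *Atf4* itself is controlled largely at translation, which RNA sequencing does not measure.

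The element that ATF4 dimers bind was looked up in the promoter windows of these genes. They are known ATF4 targets, so its presence is not independent of their choice and is given as a description. RefSeq windows of 300 bases (GRCm38.p6, 250 bases before to 50 after each start) were matched by symbol for 9 of the 10 genes, *Slc7a5* being the exception. The motif TGATGNAA, searched on both strands, was present in 3 of 9 genes (*Asns*, *Chac1* and *Trib3*), beside 3.97% of all 32851 windows, a share per window and not per gene. Each site is printed 5′ to 3′ on the strand of its gene with the motif in capitals, first for these 3 genes and then for 6 other pathway genes, of which *Slc7a11*, *Atf3*, *Nupr1*, *Tars* and *Herpud1* were called higher after LPS at both ages and *Got1* was called lower in young cultures. Of 57 other pathway genes with a window, 15 (26.3%) held the motif, and not all of them responded. *Slc1a4*, with the motif too, was not called at either age (log2 fold changes of -0.09 in young and -0.03 in aged cultures), and *Vldlr* and *Fgf21* had 0 counts in all libraries. The sites lie at chr6:7693215-7693242 for *Asns*, chr2:152344029-152344056 for *Trib3*, chr3:50443662-50443689 and chr3:50443643-50443670 for *Slc7a11*, chr1:191183426-191183453 for *Atf3*, chr7:126625563-126625590 for *Nupr1*, chr15:11399656-11399683 for *Tars*, chr8:94386307-94386334 for *Herpud1* and chr19:43524690-43524717 for *Got1*. For *Chac1*, the gene with the largest fitted LPS response in young cells among the 10, the bases upstream of the annotated gene are shown whole (chr2:119350992-119351228, 237 bases).
Asns: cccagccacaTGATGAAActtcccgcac
Trib3: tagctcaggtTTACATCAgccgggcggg
Chac1: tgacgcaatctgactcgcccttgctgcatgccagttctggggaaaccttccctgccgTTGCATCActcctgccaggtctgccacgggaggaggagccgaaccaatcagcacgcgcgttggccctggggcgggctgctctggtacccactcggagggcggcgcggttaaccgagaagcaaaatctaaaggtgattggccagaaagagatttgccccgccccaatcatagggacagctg
Slc7a11: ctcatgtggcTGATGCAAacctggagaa
Slc7a11: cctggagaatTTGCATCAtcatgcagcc
Atf3: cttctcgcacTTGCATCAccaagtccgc
Nupr1: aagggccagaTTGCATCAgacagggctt
Tars: aggagtcccgTTGCATCAgctggttagc
Herpud1: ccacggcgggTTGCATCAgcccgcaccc
Got1: attgcattggTTGCATCAtacaagcctc
Counted from the RefSeq start of each window, the first base of the motif lies at position -23 for *Asns*, -193 for *Chac1* and 15 for *Trib3*. The RefSeq starts of *Asns* and *Chac1* lie inside the annotated gene spans given with their values, so the distance to the end of the span differs. *Slc7a11* carries 2 matches, at -66 and -47. The RefSeq starts used for *Trib3* and *Herpud1* were not found among the annotated transcripts that served for the other coordinates. A match is a description of these letters in this window and no evidence of binding.

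Total counts per library ranged from 11371508 to 16829292. The microglial label was checked against 9 markers, whose summed level as CPM (counts scaled to the size of the library) was 2274 to 3735 CPM in untreated and 2665 to 4228 CPM in LPS-treated libraries, with *Cx3cr1* and *Aif1* low. Summed neuronal and fibroblast markers stayed at or below 0.129 CPM in every library, astrocyte markers reached at most 1.25 CPM and oligodendrocyte markers 1.78 CPM. The summed LPS check genes *Tnf*, *Il6* and *Nos2* went from 12.7 to 33.7 CPM in untreated libraries to 480 to 1607 CPM in treated ones.

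LPS raised 8 of the 10 genes in young BV-2 microglia and the same 8 in aged BV-2 microglia, at an adjusted p below 0.05. The 8 were *Atf4*, *Ddit3*, *Trib3*, *Chac1*, *Sesn2*, *Asns*, *Mthfd2* and *Slc7a5*. *Chac1* passed the filter on low counts only through the LPS-treated groups. Its call is therefore no support for the count, though it is part of it and of the medians below. The count has to be read against a broad LPS response. Of all genes tested, 31.2% were called higher in young and 27.5% in aged cultures, and 33.5% and 26.9% lower. The median log2 fold change (FC) of the 10 genes was 0.89 in young and 0.81 in aged cultures, beside -0.01 and 0.00 over all genes tested. In bulk RNA of this kind, fewer cells of a type and less RNA per cell cannot be told apart. Adjusted p-values are from edgeR's quasi-likelihood test with Benjamini-Hochberg adjustment over all genes tested.

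*Atf4* (chr15:80255184-80257541), the central transcription factor, stood at 205, 224, 216, 261 and 239 CPM in young untreated cultures 1 to 5 and at 369, 334, 352, 487 and 414 CPM in young LPS-treated cultures 1 to 5. In aged cultures 1 to 5 it stood at 304, 256, 207, 238 and 286 CPM untreated and at 629, 382, 290.1, 403 and 455 CPM after LPS. All 5 young treated libraries lay above all 5 young untreated ones, and in aged cells the ranges touched because LPS-treated culture 3 stayed below untreated culture 1. The log2 FC was 0.77 ± 0.15 (SE, adjusted p = 8.79e-05) in young and 0.74 ± 0.15 (adjusted p = 0.000189) in aged cultures.

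*Ddit3* (chr10:127290774-127296288), which encodes CHOP, a partner of ATF4 and a mediator of stress-induced cell death, was measured at 4.62, 4.03, 4.47, 5.93 and 4.33 CPM in young untreated cultures 1 to 5 and at 11.4, 12.0, 15.7, 24.0 and 18.3 CPM after LPS. The aged cultures gave 5.63, 2.89, 4.74, 3.13 and 4.93 CPM untreated and 28.0, 9.48, 9.31, 13.2 and 16.3 CPM after LPS. Treated and untreated libraries did not overlap at either age, and the fold changes were alike, at 3.50 in young (log2 FC 1.81 ± 0.28, adjusted p = 4.86e-06) and 3.59 in aged cultures (1.84 ± 0.28, adjusted p = 6.4e-06). A second identifier with the symbol *Ddit3*, at 2 to 45 counts, was not used. The longest overlap between single exons of *Ddit3* and *Mars* is 68 bases. *Mars* lies on the opposite strand at 1425 to 2990 counts, against 43 to 398 counts for *Ddit3*. The strand setting of the counting is not given in the sources used here.

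*Trib3* (chr2:152337422-152344032) encodes a pseudokinase that feeds back on ATF4 and CHOP. It was at 7.59, 5.69, 6.88, 10.2 and 7.72 CPM in young untreated cultures and at 14.9, 11.6, 14.6, 36 and 24.9 CPM in young LPS-treated cultures. Aged cultures held 13.5, 6.53, 6.22, 5.77 and 8.79 CPM untreated and 76.2, 23.0, 12.8, 31.0 and 37.3 CPM after LPS. Aged LPS-treated culture 1 stood far above the rest, and LPS-treated culture 3 of the same group lay below its untreated culture 1. The log2 FC was 1.43 ± 0.39 in young (adjusted p = 0.00271) and 2.16 ± 0.38 in aged cultures (adjusted p = 4.24e-05).

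**Figure D1:**
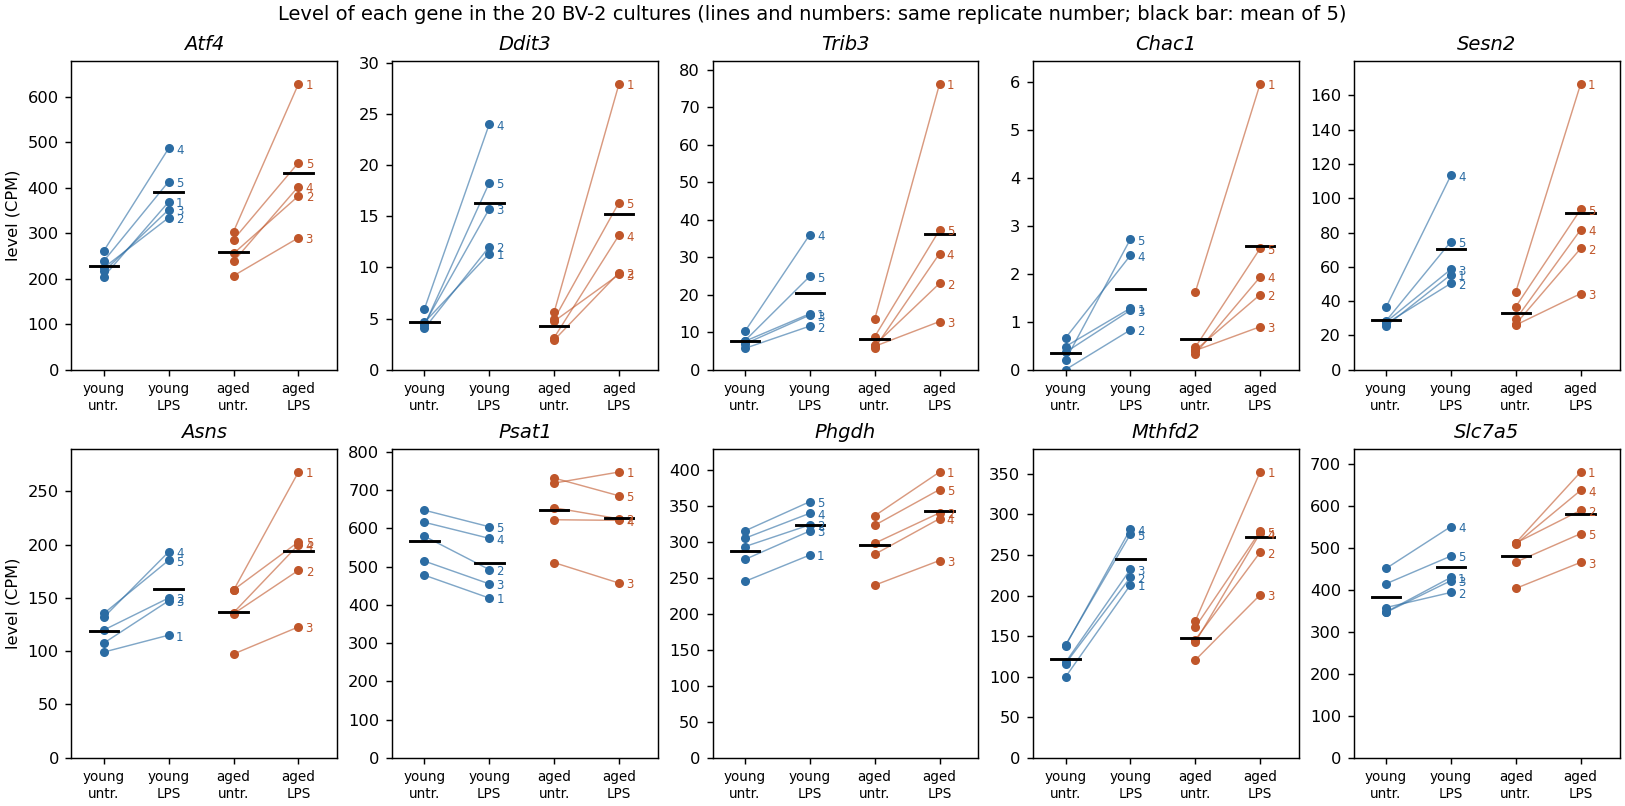
Level in CPM (vertical axes from 0) of each of the 10 genes in all 20 cultures. Points are libraries, lines join the untreated and LPS-treated library of the same age and number, numbers name the culture and black bars give the mean of 5. *Atf4* ran from 205 to 261 CPM in young untreated and from 334 to 487 CPM in young LPS-treated cultures, and aged culture 1 was the highest LPS-treated library for all 10 genes.

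Of the stress effectors, *Chac1* (chr2:119351229-119354381), which encodes a glutathione-degrading enzyme, was the lowest in level and had the largest fitted change in young cells. Its counts were 7, 0, 6, 10 and 3 in young untreated cultures 1 to 5 and 13, 10, 18, 32 and 37 after LPS, and 25, 6, 7, 6 and 7 in aged untreated cultures and 85, 19, 13, 25 and 35 after LPS. On the CPM scale this was 0 to 0.659 against 0.830 to 2.73 CPM in young cells, which did not overlap, and 0.330 to 1.62 against 0.897 to 5.97 CPM in aged cells, which did. The log2 FC was 2.31 ± 0.63 in young (adjusted p = 0.00263) and 2.02 ± 0.52 in aged cultures (adjusted p = 0.00212), values with wide intervals, from 1.084 to 3.54 and from 1.01 to 3.04.

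*Sesn2* (chr4:132492032-132510501), a stress-inducible inhibitor of mTORC1 signalling and a leucine sensor, was at 25.5, 26.8, 27.8, 36.3 and 28.4 CPM in young untreated cultures and at 55.4, 50.4, 58.5, 113 and 74.7 CPM after LPS. The aged cultures gave 45.4, 26.6, 26, 29.4 and 36.8 CPM untreated and 167, 70.7, 44.4, 81.6 and 93.5 CPM after LPS. Young cultures did not overlap between treatments, and aged ones did so only where LPS-treated culture 3 met untreated culture 1. The log2 FC was 1.28 ± 0.27 in young (adjusted p = 0.000226) and 1.48 ± 0.26 in aged cultures (adjusted p = 5.71e-05).

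The enzymes divided. *Mthfd2* (chr6:83305691-83325908), a mitochondrial enzyme of one-carbon metabolism, rose in every pair, by 0.74 to 1.10 on the log2 scale. It was at 99.5, 116, 118, 138 and 139 CPM in young untreated cultures and at 213, 222, 232, 282 and 276 CPM after LPS. In aged cultures it was at 168, 145, 120.3, 143 and 161 CPM untreated and at 352, 253, 201, 277 and 279 CPM after LPS. No library overlapped between treatments at either age, with a log2 FC of 1.01 ± 0.12 in young (adjusted p = 2.38e-07) and 0.89 ± 0.12 in aged cultures (adjusted p = 2.22e-06).

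*Asns* (chr6:7675169-7693254), asparagine synthetase, ranged from 99.2 to 135 CPM in young untreated and from 115 to 193 CPM in young LPS-treated cultures, and from 97.4 to 158 and 123 to 268 CPM in the aged ones. It was called higher with a smaller change, a log2 FC of 0.42 ± 0.17 in young (adjusted p = 0.0332) and 0.50 ± 0.17 in aged cultures (adjusted p = 0.0128). The call in young cells was lost without replicate 2, 4 or 5, with an adjusted p of 0.0785, 0.111 and 0.0829. A fit with a separate block for each pair of same age and number was chosen after seeing the data. By edgeR it called *Asns* higher at both ages (adjusted p = 8.72e-06 in young and 1.31e-06 in aged cultures).

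*Psat1* (chr19:15904678-15947337) and *Phgdh* (chr3:98313170-98339990), which carry out successive steps of serine synthesis, were not called at either age. *Psat1* was at 477, 579, 514, 616 and 647 CPM in young untreated cultures and at 418, 492, 455, 574 and 604 CPM after LPS, lower in all 5 pairs. In aged cultures it was at 718, 654, 510.4, 623 and 732 CPM untreated and at 747, 624.8, 457, 621 and 685 CPM after LPS. The log2 FC was -0.16 ± 0.12 (adjusted p = 0.274) in young and -0.05 ± 0.12 (adjusted p = 0.778) in aged cultures, so *Psat1* did not share the direction of the other 9 genes.

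*Phgdh* ranged from 246 to 316 CPM untreated and 282 to 356 CPM treated in young cells and from 240.2 to 337 and 275 to 398 CPM in aged cells. Its log2 FC was 0.17 ± 0.10 (adjusted p = 0.119) and 0.21 ± 0.10 (adjusted p = 0.0621). With the replicate number as a block, the aged difference passed (adjusted p = 0.0296), and with a separate block for each of the 10 pairs of same age and number, chosen after seeing the data, *Phgdh* was called higher at both ages (adjusted p = 7.5e-06 and 9.73e-07) and *Psat1* lower in young cells (adjusted p = 0.000233). The LPS differences of single pairs spanned 0.14 to 0.24 for *Phgdh*, the narrowest span of the 10 genes.

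*Slc7a5* (chr8:121881150-121907694), the light chain of the large neutral amino acid transporter LAT1, was at 347, 358, 346, 451 and 415 CPM in young untreated and at 430, 394, 422, 551 and 481 CPM in young LPS-treated cultures. In the aged cultures it was at 512, 512, 404, 509 and 466 CPM untreated and at 681, 590, 466, 637 and 534 CPM after LPS. Treated and untreated ranges overlapped at both ages, and the log2 FC was small, 0.25 ± 0.10 (adjusted p = 0.0409) and 0.28 ± 0.10 (adjusted p = 0.0286). The young call was lost whichever of the 5 replicate numbers was left out (adjusted p from 0.0503 to 0.0946). The aged call was lost without replicate 1, 2 or 5 (0.102, 0.0556 and 0.0588) or without aged replicate 1 alone (0.101). With a block for each pair of same age and number, *Slc7a5* was called at both ages (adjusted p = 7.45e-06 and 3.67e-06).

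**Figure D2:**
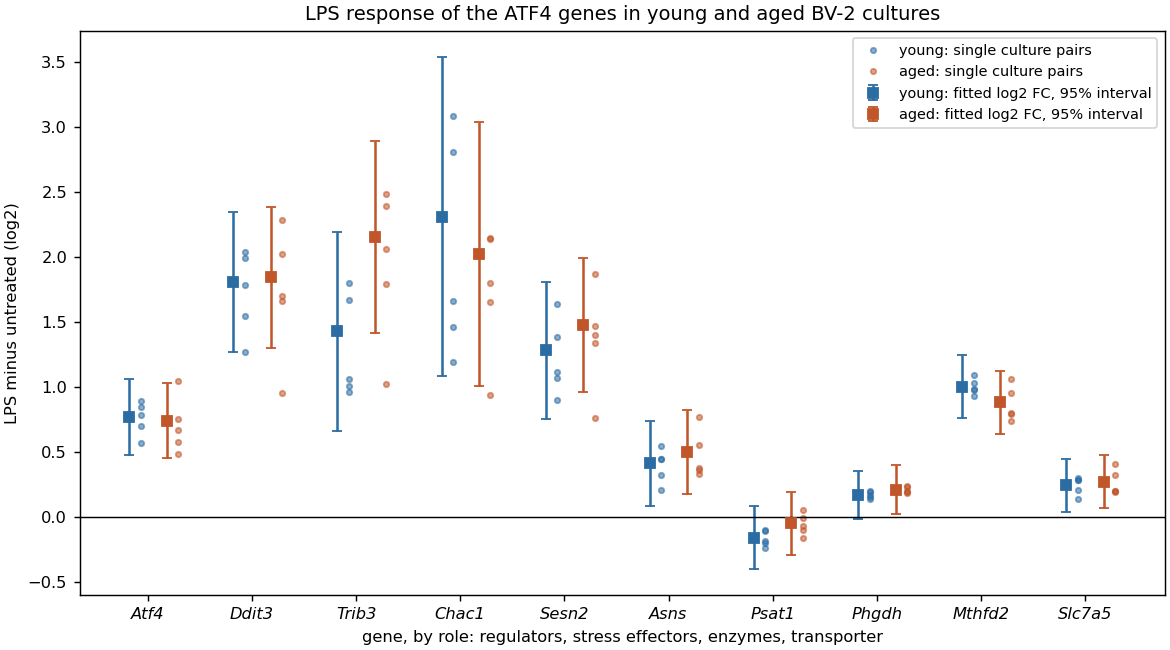
LPS response of the 10 genes in young (blue) and aged (orange) BV-2 microglia, on a log2 scale. Squares give the fitted log2 FC with its 95% interval and small points the differences of the 5 single culture pairs. The response ran from -0.16 for *Psat1* to 2.31 for *Chac1* in young cultures, and young and aged intervals overlapped for every gene.

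Read pair by pair, the LPS-treated library was above the untreated library of the same age and number in 10 of 10 pairs for 9 of the genes and in 1 of 10 pairs for *Psat1*. Treated and untreated groups did not overlap for 6 of the 10 genes in young cultures and for 2 (*Ddit3* and *Mthfd2*) in aged cultures. The 6 include *Chac1*, which passed the filter only through the LPS-treated groups. Of all genes tested, 23.9% and 21.0% lay higher without overlap (25.2% and 19.1% lower). The median of all genes shifted by -0.23 in young and -0.16 in aged cultures when libraries were scaled by their total counts alone. On that scale 27.3% of the calls in young cells were higher in place of 48.2%, and 28.4% in aged cells in place of 50.6%. *Asns* and *Slc7a5* were then no longer called at either age, *Psat1* was called lower in young cells (-0.38, adjusted p = 0.0122) and *Phgdh* turned to -0.05 there, while the log2 FC of *Ddit3*, *Trib3*, *Chac1*, *Sesn2*, *Mthfd2* and *Atf4* stayed called between 0.55 and 2.10.

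The order of the levels per length, as RPKM, the CPM per kilobase of exon, changed with LPS. In young untreated cultures the medians ran from *Psat1* (136 RPKM) over *Phgdh* (118), *Slc7a5* (96.5), *Atf4* (95.2), *Asns* (43.8), *Mthfd2* (33.7), *Sesn2* (8.01), *Trib3* (3.57) and *Ddit3* (2.61) to *Chac1* (0.221). The ranges of neighbours among the leading 4 overlapped, as did those of *Asns* and *Mthfd2* and of *Trib3* and *Ddit3*. Aged untreated cultures kept this order except that *Slc7a5* (137 RPKM) stood before *Phgdh* (120.1 RPKM), whose ranges overlapped. After LPS *Atf4* led at both ages, at a median of 157 RPKM in young and 171 RPKM in aged cultures, but its range overlapped that of the next gene. *Mthfd2* (66.6 and 79.4 RPKM) then stood before *Asns* (54.8 and 73.1 RPKM), with overlapping ranges, and *Chac1* stayed last at 0.784 and 1.18 RPKM.

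The LPS response did not differ detectably between young and aged cells for any of the 10 genes. By edgeR the interaction term, the aged minus the young LPS response, called 0 of 10, none at an unadjusted p under 0.05. DESeq2 called none of them either and gave *Chac1* no adjusted p. By edgeR 6.39% of all genes tested were called (4.12% higher and 2.27% lower). Of those calls 64.4% were higher, or 81.3% with libraries scaled by total counts alone. The largest estimate was that of *Trib3*, 0.73 ± 0.54 on the log2 scale (adjusted p = 0.524), with an interval from -0.33 to 1.78. This fit ignores the pairs of same age and number. With a separate block for each pair, chosen after seeing the data, the *Trib3* estimate was 0.68 (edgeR, adjusted p = 0.0612). That block called 2162 of the 12799 genes tested and still none of the 10. In the fit without the block, the data bound the difference most tightly for *Phgdh*, with an interval from -0.22 to 0.31, and *Slc7a5*, from -0.26 to 0.31. The interval was from -0.46 to 0.22 for *Mthfd2* and from -0.23 to 0.45 for *Psat1*. For *Chac1* the interval ran from -1.92 to 1.35.

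Between ages, 1 of the 10 genes was called in each condition, *Slc7a5*, which was higher in aged BV-2 microglia. Untreated, the means were 384 ± 47.1 CPM in young and 481 ± 47.2 CPM in aged cultures (SD, n = 5), a log2 FC of 0.33 ± 0.10 (adjusted p = 0.0444). After LPS they were 455 ± 61.9 and 581 ± 84.8 CPM (SD, n = 5), a log2 FC of 0.35 ± 0.10 (adjusted p = 0.0134). The groups overlapped in both cases. Of all genes tested, 11.5% were called between ages untreated (3.71% higher and 7.81% lower in aged cells) and 29.0% after LPS (14.0% higher and 15.0% lower). The 10% of members called is near the untreated share and below the share after LPS, so the count is no result about these genes. No member was free of overlap between ages, as 3.76% of all genes tested were on the higher and 6.63% on the lower side untreated, and 6.69% and 8.16% after LPS. The untreated call was lost without replicate 1, 2 or 5 (adjusted p = 0.155, 0.229 and 0.0801) or aged replicate 1 alone (0.0778) and the LPS call without replicate 1 or 2 (0.0814 and 0.105). Scaling by total counts alone moved the share of calls that were higher after LPS from 48.3% to 70.1%, and *Psat1* then passed too (0.38, adjusted p = 0.0236).

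The other 9 genes were not called. The median log2 FC of the 10 genes was 0.18 untreated and 0.30 after LPS, beside -0.01 and 0.01 over all genes tested. Because the genes move together from culture to culture, these are not 10 separate observations, and leaving out single replicates turned the sign for 4 genes untreated (*Ddit3*, *Trib3*, *Sesn2* and *Phgdh*) and for 6 after LPS (*Atf4*, *Ddit3*, *Chac1*, *Sesn2*, *Phgdh* and *Mthfd2*). *Trib3* was at 20.4 ± 10.1 CPM in young and 36.1 ± 24.2 CPM in aged LPS-treated cultures (SD, n = 5, log2 FC 0.82 ± 0.35, adjusted p = 0.0871), and *Psat1* at 509 ± 78.8 and 627 ± 108 CPM (SD, n = 5, 0.30 ± 0.12, adjusted p = 0.0704). With the replicate number as a block, 2 of 10 genes were called after LPS in place of 1, since *Psat1* passed (adjusted p = 0.0172). Without replicate 1, the differences after LPS fell to -0.05 for *Atf4*, -0.03 for *Sesn2*, -0.06 for *Chac1* and 0.25 for *Trib3*, and no gene was called. Without the 2 libraries of aged culture 3, the lowest aged culture, 4 genes were called after LPS (*Trib3*, *Asns*, *Psat1* and *Slc7a5*).

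Within groups, the 10 genes moved together from culture to culture. The deviation of each library from its group mean (log2 CPM) was correlated between genes over the 20 libraries, which form 10 pairs of the same age and number and are not independent. All pairs of genes gave a positive Pearson r, from 0.49 (*Chac1* and *Phgdh*) to 0.97 (*Trib3* and *Sesn2*), with a median of 0.80. *Chac1* had 0 to 10 counts in young and 6 to 25 in aged untreated libraries, so its deviations there carry much counting error. It is part of the score below. The lowest r without *Chac1* was 0.50 (*Ddit3* and *Slc7a5*). The enzymes *Psat1*, *Phgdh*, *Asns* and *Mthfd2*, a grouping by role, had r from 0.93 to 0.97 with each other, and the regulators *Atf4*, *Ddit3* and *Trib3* from 0.80 to 0.94. *Psat1*, which was not called after LPS, had r = 0.85 with *Atf4* across cultures.

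**Figure D3:**
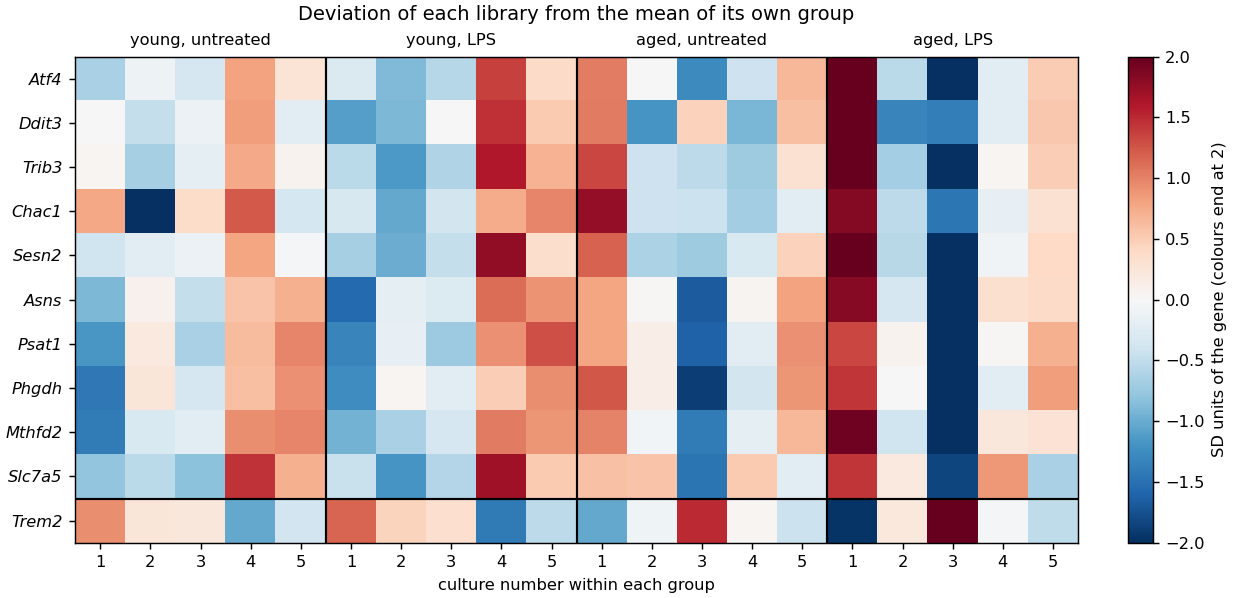
Deviation of each library from the mean of its own group, in SD units of each gene, for the 10 genes and, below the line, *Trem2*. Columns are the 5 cultures of each group, red is above and blue below the group mean, and colours end at 2 SD. Aged culture 1 was above the mean for all 10 genes in both treatments, and aged LPS-treated culture 3 was below it for all 10.

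A score, the mean of these deviations in SD units over the 9 genes other than *Atf4*, ordered the cultures. Aged culture 1 was highest, at 1.079 untreated and 1.86 after LPS, and young culture 4 followed, at 0.86 and 1.21. Aged culture 3 was lowest, at -1.03 and -1.92. Of the young cultures, culture 1 was lowest, at -0.59 and -0.90. The part of the batch number in this order was not tested.

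The untreated and the LPS-treated library of the same age and number kept this order, with r = 0.97 over 10 pairs, a Spearman rho of 0.95 and r = 0.94 without the 2 pairs farthest from the median. *Atf4*, which is not in the score, followed it with r = 0.96 over 20 libraries (rho = 0.93, r = 0.94 without the 2 farthest). The score was unrelated to the total count (r = 0.01) and to the mitochondrial share of counts (r = -0.01). These are descriptions with no test, since the genes had been chosen with results of these data known.

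The spread within a group, as the highest over the lowest library, differed between the genes. In aged LPS-treated cultures it was 6.66 for *Chac1*, 5.94 for *Trib3*, 3.76 for *Sesn2*, 3.00 for *Ddit3*, 2.18 for *Asns* and 2.17 for *Atf4*, beside a median of 1.27 and a 90th percentile of 2.05 over all genes tested. *Mthfd2* (1.75), *Psat1* (1.64), *Slc7a5* (1.46) and *Phgdh* (1.45) lay below that percentile. In young untreated cultures the ratio was smaller, at 1.80 for *Trib3*, 1.30 for *Slc7a5*, 1.29 for *Phgdh* and 1.28 for *Atf4*. The median over all genes tested was 1.24 there and the 90th percentile 1.92. Ratios of single genes came from CPM, whereas those over all genes came from log2 CPM with a prior count of 2. A prior count narrows the ratio at low counts such as those of *Chac1*, so the measures are not alike there.

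Microglial markers moved against the score. Their summed level had r = -0.87 with it (rho = -0.96), and 8 of the 9 markers had a negative r, from -0.98 for *Trem2*, a lipid-sensing receptor of microglia, to -0.09 for *Spi1*, with *Aif1* at 0.04. *Trem2* was the gene with the lowest r of all 12799 tested. Its level was 266 CPM at the median of aged untreated cultures, from 225 to 350, and it ran from 118 to 248.5 CPM among aged LPS-treated cultures. The LPS check genes had a negative r as well, -0.67 for *Tnf*, -0.74 for *Il6* and -0.68 for *Nos2*. *Il6* had 0 counts in all 5 aged untreated libraries and 0 to 4 in young untreated ones. *Nos2* had 0 to 1 counts in aged untreated libraries, so these r values rest largely on the other libraries. No marker of neurons or fibroblasts was above the filter, and the part of the markers in the covariation of the 10 genes was not tested.

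**Figure D4:**
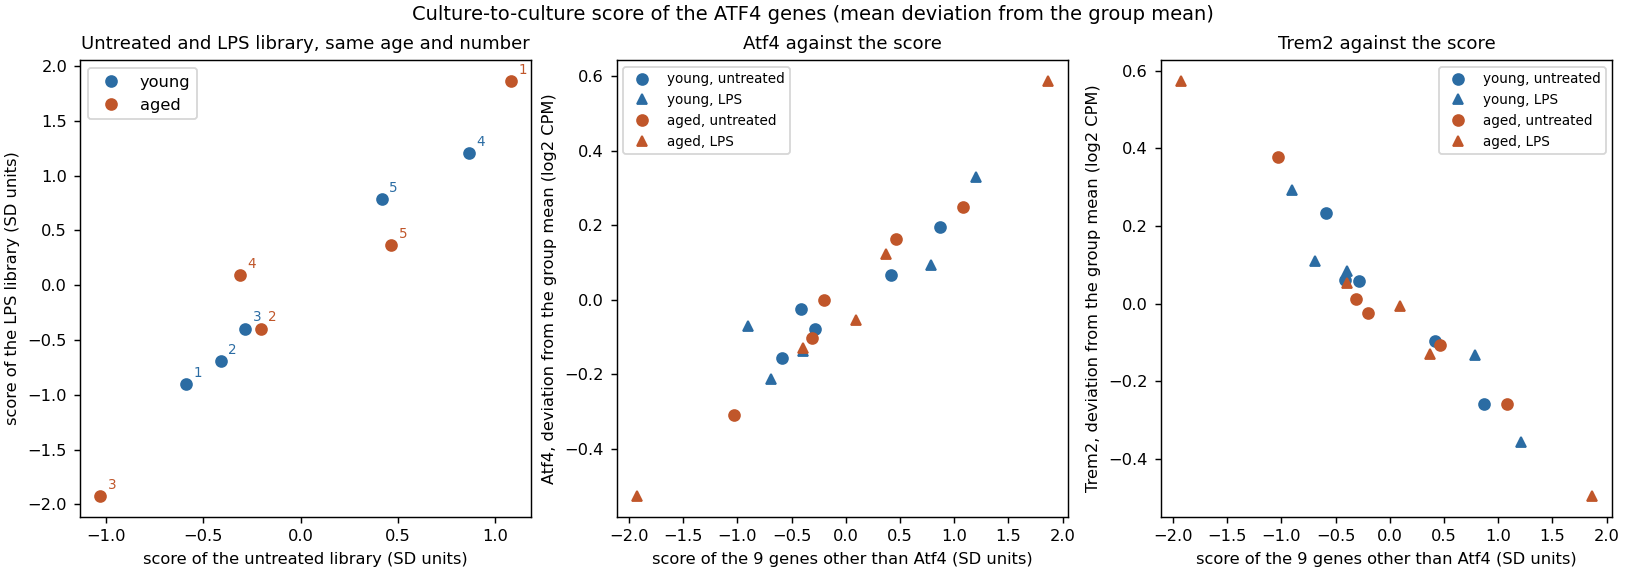
Score of the 9 genes other than *Atf4* (mean deviation from the group mean, SD units). The left panel sets the LPS-treated against the untreated library of the same age and number (10 pairs, r = 0.97), the middle panel *Atf4* (20 libraries, r = 0.96) and the right panel *Trem2* (r = -0.98) against the score, each as deviation of log2 CPM from the group mean.

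Among genes outside the 10 and the pathway lists, those most like the score were *Prrc1* (r = 0.95), *Sec14l1* (0.95), *Washc5* (0.93), *Stard4* (0.93) and *Tnks2* (0.93), each over 20 libraries. Of all genes tested, 287 (2.24%) had an r over 0.8. In the pathway lists the median r was 0.87 for 7 other amino acid transporters, 0.85 for 13 genes of aminoacyl-tRNA synthetases and tRNA export, 0.81 for 8 other amino acid and one-carbon enzymes, 0.73 for 7 other stress effectors and 0.70 for 14 genes of the ATF6 and XBP1 arm of the unfolded protein response. The bZIP partners had a median of 0.27 and the eIF2 kinases and exchange factors -0.21. *Ddit4* (0.96), an inhibitor of mTORC1, *Slc6a9* (0.96), a glycine transporter, *Aars* (0.96), alanyl-tRNA synthetase, and *Eif4ebp1* (0.95), a brake on translation, had the highest values among them.

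Across 7 lists of other genes of the pathway, 69 of 73 genes were tested, and LPS raised 35 and lowered 10 of them in young cultures and raised 33 and lowered 5 in aged cultures. The share called higher was 50.7% in young and 47.8% in aged cultures, beside 31.2% and 27.5% of all genes tested, and the share called lower was 14.5% and 7.25%, beside 33.5% and 26.9%. Counted in both directions, 65.2% and 55.1% were called, beside 64.6% and 54.4% of all genes tested. The largest changes were those of *Slc7a11*, the cystine transporter of the xCT system, with a log2 FC of 4.78 ± 0.33 in young and 5.22 ± 0.35 in aged cultures, and of *Gdf15*, a secreted stress cytokine, with 4.26 ± 0.34 and 4.62 ± 0.36. *Slc7a11* went from 13.9 to 49.3 CPM untreated to 398 to 922 CPM in young and from 9.48 to 16.4 to 219 to 745 CPM in aged cultures. *Slc3a2*, the heavy chain that pairs with both *Slc7a5* and *Slc7a11*, rose by 0.98 ± 0.06 and 0.81 ± 0.06.

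Of 13 tRNA synthetase and export genes, 11 rose at each age (84.6%, beside 31.2% and 27.5% of all genes tested), *Mars1* and *Xpot* being the exceptions, with medians of 0.35 and 0.33 and *Tars* at 0.67 and 0.53. Changes of this size depend on the scaling. With libraries scaled by total counts alone, the median of all genes lay at -0.23 in young and -0.16 in aged cultures. The count for this list on that scale is not given here. Of the other amino acid and one-carbon enzymes, 0 of 8 rose in young cultures, by edgeR as by DESeq2. By edgeR 2 fell (25%, beside 33.5% of all genes tested), *Got1* at -0.33 and *Aldh18a1* at -0.23. With the replicate number as a block, 4 of the 8 were called in young cultures in place of 2, *Shmt2* lower and *Pycr1* higher besides. Under that block 8671 of all 12799 genes tested were called. In aged cultures *Pycr1* alone of the 8 rose, at 0.51. The difference between the lists was not tested. *Psph*, which completes serine synthesis after *Phgdh* and *Psat1*, had a log2 FC of 0.04 and 0.19, and *Shmt2*, which feeds mitochondrial one-carbon metabolism, of -0.12 and 0.06, beside 1.01 and 0.89 for *Mthfd2*.

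Among the bZIP factors, *Atf3* (2.35 and 2.03), *Nupr1* (1.79 and 1.04), *Cebpb* (1.5 and 1.24) and *Jdp2* (1.14 and 0.93) rose at both ages. Of the eIF2 kinases, *Eif2ak2*, the interferon-inducible PKR, rose (2.29 and 1.84), whereas *Eif2ak3*, the endoplasmic reticulum kinase PERK (-1.0 and -0.38), *Eif2ak4*, the amino acid sensor GCN2 (-0.44 and -0.40), and *Eif2ak1*, the haem-regulated kinase (-0.25 and -0.16), fell. *Ppp1r15a*, the inducible phosphatase subunit that reverses eIF2 phosphorylation, rose by 2.23 ± 0.10 and 1.78 ± 0.10. In the ATF6 and XBP1 arm, 5 of 14 genes rose (35.7%) and 3 fell (21.4%) in young cultures. In aged ones 3 rose (21.4%) and 2 fell (14.3%). Of all genes tested, 31.2% and 27.5% were called higher and 33.5% and 26.9% lower, so the number rising is no result about this arm. *Herpud1* (1.26 and 1.48), *Hspa5* (0.78 and 0.52) and *Dnajb9* (0.54 and 0.73) rose at both ages. In young cultures *Atf6* (165 to 174 CPM untreated, 134 to 143 after LPS) and *Sel1l* (189 to 209 and 162 to 185 CPM) lay lower without overlap.

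**Figure D5:**
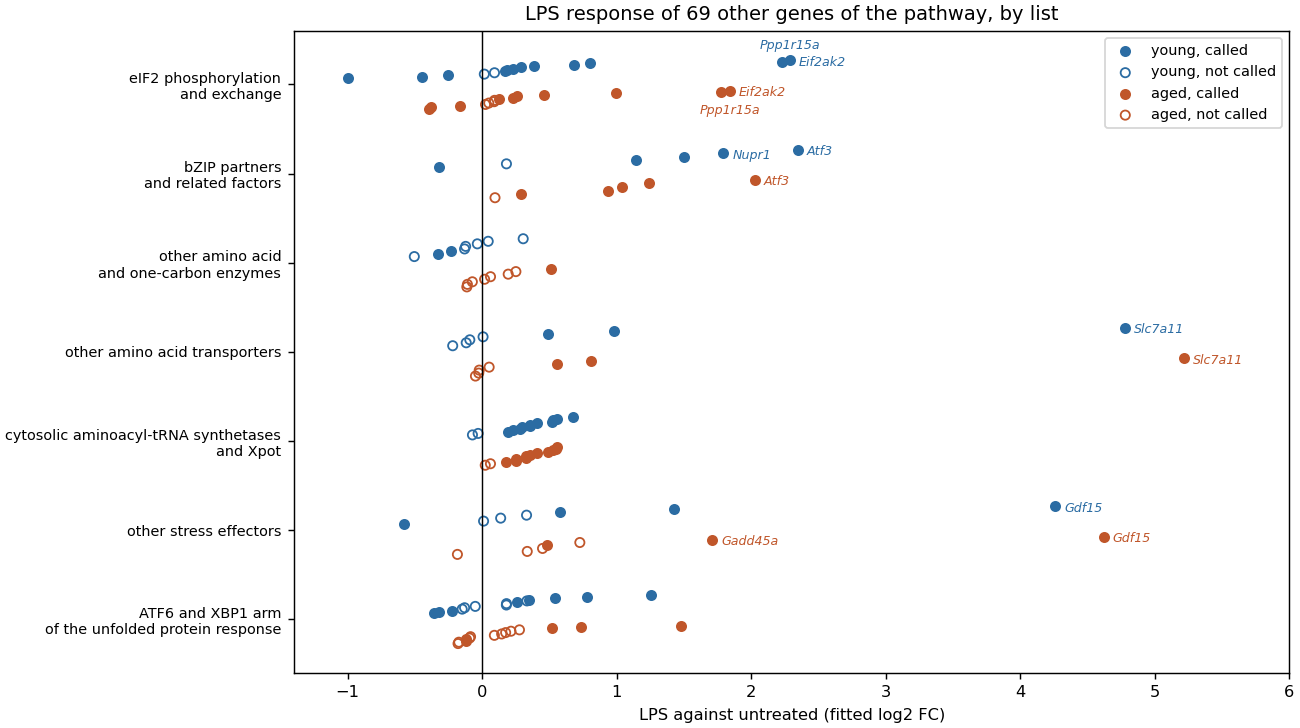
LPS response (fitted log2 FC, horizontal axis) of 69 other genes of the pathway in 7 lists, young in blue and aged in orange. Filled points were called at an adjusted p below 0.05 and open points were not. *Slc7a11* (4.78 and 5.22) and *Gdf15* (4.26 and 4.62) stood apart, and 11 of 13 tRNA synthetase and export genes were called higher at each age.

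Between aged and young cultures, 3 of the 69 genes were higher and 4 lower untreated, and 12 were higher and 7 lower after LPS. The shares called, 10.1% and 27.5%, were near the 11.5% and 29.0% of all genes tested and are no result about these genes. Under LPS, 5 of 8 enzymes were higher in aged cells (*Psph* 0.38, *Aldh18a1* 0.34, *Got1* 0.32, *Mthfd1l* 0.28 and *Shmt2* 0.22), beside 14.0% of all genes tested. No enzyme of that list was free of overlap between ages there. The list moved with the score from culture to culture (median r = 0.81), so these are not 5 separate observations. Of the bZIP factors, 4 of 6 were lower (*Nupr1* -0.68, *Atf3* -0.61, *Atf5* -0.46 and *Cebpb* -0.30), beside 15.0% of all genes tested. *Eif2ak2* and *Ppp1r15a* were lower there too, both at -0.68. In untreated cultures *Atf5* (-0.57), *Cebpg* (-0.40), *Atf3* (-0.29) and *Eif2ak3* (-0.25) were lower in aged cells, and *Ero1l* (0.36), *Eif2b3* (0.22) and *Eif2s1* (0.18) were higher. By edgeR the LPS response itself differed for *Eif2ak3*, by 0.62 ± 0.11 (adjusted p = 0.00103), and *Cebpg*, by 0.42 ± 0.10 (adjusted p = 0.0149). These 2 of 69 genes (2.90%) stand beside 6.39% of all genes tested, so the count is no result about the lists.

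With the replicate number as a block, 6 of the 69 were called in that interaction, beside 1156 of all 12799 genes tested. Among the 6 were *Eif2ak2*, *Ppp1r15a* and *Atf3*, with -0.45, -0.46 and -0.33 (edgeR, adjusted p = 0.0296, 0.0299 and 0.0213). *Eif2ak3* was at 21.4 to 26.8 CPM in young untreated and at 11.2 to 14.1 CPM in young LPS-treated cultures, against 19.7 to 22.6 and 15.3 to 16.6 CPM in aged cultures, with no overlap between treatments at either age.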

How the data were processed

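RNA was sequenced from 20 BV-2 cultures, 5 in each of 4 groups, from stranded mRNA libraries. The values used are the raw gene counts that the authors deposited. Per the submitters' processing notes, reads were checked with FastQC 0.11.8, aligned with STAR 2.6.1d to GRCm38 and counted with featureCounts 1.5.1, and DESeq2 was used by the authors. The strand and multi-mapping settings are not given in the sources used here.

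Groups came from the sample labels. Genes were filtered with edgeR's filterByExpr (12799 of 55487 identifiers kept), scaled by trimmed mean of M-values (TMM) and tested in edgeR 4.0.16 (R 4.3.3, limma 3.58.1) by the quasi-likelihood test over all 4 groups, with Benjamini-Hochberg adjustment over all genes tested and a threshold of 0.05. The 5 contrasts were LPS against untreated at each age, aged against young in each condition, and the interaction. Standard errors are the absolute log2 fold change over the square root of the F statistic, 95% intervals follow from them by a normal approximation, and log2 CPM used a prior count of 2. CPM and RPKM were computed from the counts and TMM-scaled library sizes, RPKM with exon union lengths from the GRCm38 annotation. Total counts were 11371508 to 16829292, so 3 counts corresponded to 0.165 to 0.296 CPM, a limit for counting error only. The scripts were tested on simulated counts.

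The 10 genes, the pathway and marker lists and the tests were chosen with earlier results of these data known. Named genes were the 10 members, up to 4 called genes with the largest changes per pathway list and comparison, *Eif2ak3*, *Eif2ak4*, *Atf3*, *Atf5*, *Slc3a2* and *Slc7a11* in any case, and the 5 genes outside the lists most like the score. Other names, such as *Psph*, *Shmt2*, *Mars1*, *Xpot*, *Eif2ak1* and *Trem2*, were chosen after their values were seen. The labels give each sample a batch number from 1 to 5, equal to its replicate number, which therefore pairs the samples. Deviations of same-numbered samples correlated with a mean r of 0.146 over all pairs of groups, 0.268 across treatments at the same age and 0.0769 across ages under the same treatment, where single values fell to -0.214. Alternatives tried were 13 planned and 3 chosen after seeing the data, among them DESeq2 1.42.0, replicate blocks, other scalings and filters, and leaving out replicates.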

Additional observations from a re-analysis of the deposited data

Results flagged for a closer look

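In single groups of 5 libraries, the highest *Chac1* level of the aged untreated cultures, 1.62 CPM in culture 1, stood apart from the other 4, with a gap to the nearest of 0.894 of the whole range. The highest *Sesn2* level of the young untreated cultures, 36.3 CPM in culture 4, stood apart in the same way, with a gap of 0.731 of the range. These are 2 of 40 combinations of gene and group that were looked at, and chance alone marks about 1 in 20.

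Between ages, the LPS response of *Eif2ak3* was higher in aged than in young cultures by 0.62 on the log2 scale (edgeR, adjusted p = 0.00103), since the gene fell by 1.00 in young and by 0.38 in aged cultures. The LPS response of *Cebpg*, a C/EBP partner of ATF4, differed by 0.42 (edgeR, adjusted p = 0.0149), with log2 fold changes of -0.32 in young and 0.09 in aged cultures, the latter not called.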

How the results depend on the processing

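The interaction called 0 of the 10 genes under every alternative run. Other counts moved. With the replicate number as a block, 2 members in place of 1 were called between aged and young LPS-treated cultures, and 2 again with the block in DESeq2 and with library sizes alone, and 3 without a filter. Of the other pathway genes, 7 were called between ages in untreated cultures, against 11 with the block in DESeq2 and 14 with only the groups compared in the fit. In the interaction 2 were called, against 7 with DESeq2, 6 with the block, 9 with the block in DESeq2, 4 without a filter and 15 with the block within each age. Of all 12799 genes tested by edgeR, 818 were called there without a block, 1156 with the block and 2162 with the block within each age. The block changed the call of *Phgdh* (aged, LPS) and *Psat1* (aged against young, LPS) and of no other member.

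Leaving out replicates gave 0 to 2 members between ages untreated, 0 to 4 after LPS, 6 to 9 for LPS in young and 7 to 9 in aged cultures, and 4 to 12, 12 to 29 and 1 to 5 other pathway genes for untreated, LPS and the interaction. It turned the sign of these differences, none of them called. Between ages untreated, *Ddit3* ran from -0.257 to 0.0637, *Trib3* from -0.165 to 0.326, *Sesn2* from -0.0089 to 0.31 and *Phgdh* from -0.0574 to 0.112. After LPS, *Atf4* ran from -0.0505 to 0.257, *Ddit3* from -0.534 to 0.133, *Chac1* from -0.0614 to 0.848, *Sesn2* from -0.0338 to 0.649, *Phgdh* from -0.014 to 0.158 and *Mthfd2* from -0.000171 to 0.246. In the interaction, *Atf4* ran from -0.139 to 0.0143, *Ddit3* from -0.277 to 0.219, *Chac1* from -0.601 to 0.0109, *Sesn2* from -0.0249 to 0.339, *Asns* from -0.0337 to 0.142 and *Slc7a5* from -0.0115 to 0.0454. Library sizes alone turned *Phgdh* (LPS, young) to -0.048 and the *Atf4* interaction to 0.0296, and the block turned the *Ddit3* interaction to -0.00455, or -0.0229 in DESeq2. The cause was not tested. The median correlation within groups, 0.80, ran from 0.74 to 0.85.

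*Chac1*, at 0 to 85 counts, gave no value with at least 10 counts in every sample. Its depth allowed only wide intervals.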
